A study of Rattus norvegicus with 10 samples.

Results

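The 10 genes described here encode receptors and sensors through which cells detect microbes and misplaced nucleic acids. They are the Toll-like receptors Tlr2, Tlr3, Tlr4, Tlr7 and Tlr9, their adaptor Myd88, and the sensors Ddx58, Ifih1, Dhx58 and Zbp1, which lie inside the cell. They were chosen by name, as the genes that carry these symbols in the deposited annotation. The rule uses no measured value, but the list was drawn up with earlier results of these data known. They are 10 of the 23487 genes in the count table. In every comparison all 10 reached the limit set for testing a gene, which was 5 counts in 2 or more of its 4 libraries.

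Expression was measured by RNAseq in primary cells from cerebral cortices of P1-P3 Sprague-Dawley rat pups, with 2 libraries in each of 5 groups and 10 in all. Oligodendrocyte progenitor cells (OPCs) were shaken off mixed glial cultures, kept with FGF2 and PDGFAA, and lysed 24 h after transfection with an inhibitor of miR-145-5p (anti-miR-145) or a scrambled inhibitor (anti-miR-ctl). Oligodendrocytes (OLs), which were OPCs moved to medium with triiodothyronine and CNTF, were lysed 5 days after transfection with a mimic of miR-145, with mimics of both miR-145 and miR-219, or with a scrambled mimic (miR-ctl). Every group is listed at 30 nM of oligonucleotide, with the same lipid reagent (INTERFERin), and no untransfected cells are among these samples. The study's methods do not say whether the group with both mimics received 30 nM in all or of each mimic. The treatment tag of the OL miR-145 libraries also names miR-219, whereas their titles and descriptions name miR-145 alone, and they are described here as miR-145. The labels number the libraries of a group without saying what a number stands for. The study's general statement on replication describes each replicate of primary cells as a culture from a single animal, drawn over several litters, but names mice and not these rat libraries. If they were not separate cultures, p-values cover only the spread between these libraries.

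Toll-like receptors sit at the cell surface, where Tlr2 and Tlr4 bind bacterial lipoproteins and lipopolysaccharide, or in endosomes, where Tlr3 binds double-stranded RNA, Tlr7 single-stranded RNA and Tlr9 unmethylated CpG DNA. Most of them signal through Myd88 to NF-kB and interferon regulatory factors, and Tlr3 does so through another adaptor. In the cytosol, RIG-I (Ddx58) and MDA5 (Ifih1) detect viral RNA, LGP2 (Dhx58) modulates them, and Zbp1 binds left-handed nucleic acids and can start necroptosis. In the brain, microglia carry most of these receptors, and several of the sensor genes are themselves induced by interferon.

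Library totals lay between 33505706 and 42684206 counts, so that 1 count was worth 0.0227 to 0.0307 CPM (counts per library total, scaled by TMM over the 10 libraries). The labelled cell types were present by their markers. The summed level of 8 OL markers lay between 15530 and 34021 CPM in OL libraries and between 1086 and 1314 CPM in OPC libraries, and that of 6 OPC markers between 4667 and 5841 CPM in OPC libraries and between 2135 and 2705 CPM in OL libraries. Other cells were present as well. All 15 microglia markers were detected in every library, at a summed 1186 to 1508 CPM in OPC libraries and 528 to 1379 CPM in OL libraries, while astrocyte markers summed to 4982 to 12018 CPM in OL libraries and 218 to 443 CPM in OPC libraries. Fibroblast or mural markers summed to 24.3 CPM in replicate 2 of OL miR-145 and to at most 7.50 CPM in every other library. Mature miRNAs are not measured in mRNA libraries, so the level of miR-145-5p itself was not checked here.

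The mimic of miR-145 has, per the labels, the sequence of the mature miRNA, which is shown with its seed (bases 2 to 8) in capitals beside miR-219a-5p. The labels do not state the arm of the miR-219 mimic. Both sequences are from RefSeq (GRCr8), and their seeds differ.
rno-miR-145-5p: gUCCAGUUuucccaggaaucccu
rno-miR-219a-5p: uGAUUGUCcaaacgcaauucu

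Promoters from RefSeq (GRCr8), which cover 250 bases before to 50 bases after the annotated start, were matched for 7 of the 10 genes, leaving out Ddx58, Dhx58 and Zbp1. They were searched on both strands for the interferon-stimulated response element (ISRE, read as GAAA, 2 bases of any kind and GAAA), the gamma-activated site (GAS, TTCNNNGAA) and the kappaB motif. ISRE letters stood in 2 of the 7 windows, those of Ifih1 and Myd88, against 3.77% of 27457 promoters of the same length. GAS letters stood in 1 window, that of Myd88, where they overlap the ISRE, against 8.68% of promoters. The kappaB motif stood in 1 window, that of Tlr2, with 3 matches of which the first 2 overlap, against 7.60% of promoters. The 3 windows are printed 5′ to 3′ on the gene's strand because they hold these letters, with ISRE in capitals for Ifih1 and Myd88 and the kappaB matches in capitals for Tlr2. The first ISRE base lies at -59 in Ifih1 and at -16 in Myd88, and the kappaB matches of Tlr2 begin at -206, -205 and -42. A match describes letters and not a site in use.
Ifih1, chr3:67683919-67684218, minus strand: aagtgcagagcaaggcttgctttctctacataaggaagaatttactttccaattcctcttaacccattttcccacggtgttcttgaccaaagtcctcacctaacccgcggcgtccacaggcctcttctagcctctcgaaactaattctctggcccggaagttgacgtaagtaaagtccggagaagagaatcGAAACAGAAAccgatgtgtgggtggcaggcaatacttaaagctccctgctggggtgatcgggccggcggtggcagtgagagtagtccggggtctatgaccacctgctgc
Myd88, chr8:127956181-127956480, minus strand: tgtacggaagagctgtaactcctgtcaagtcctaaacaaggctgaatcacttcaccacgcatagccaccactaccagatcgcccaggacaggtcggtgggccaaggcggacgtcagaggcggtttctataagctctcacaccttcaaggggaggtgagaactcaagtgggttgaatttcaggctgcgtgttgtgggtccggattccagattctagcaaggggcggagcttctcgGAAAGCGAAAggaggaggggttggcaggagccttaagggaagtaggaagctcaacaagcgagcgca
Tlr2, chr2:171504508-171504807, minus strand: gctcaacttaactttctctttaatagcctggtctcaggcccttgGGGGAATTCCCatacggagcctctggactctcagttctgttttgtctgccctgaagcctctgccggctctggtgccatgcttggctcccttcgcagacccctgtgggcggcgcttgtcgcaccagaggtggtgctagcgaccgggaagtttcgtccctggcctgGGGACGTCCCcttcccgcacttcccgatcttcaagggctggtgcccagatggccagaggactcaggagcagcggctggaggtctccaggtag

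In OPCs, 7 of the 10 genes were lower with anti-miR-145 than with anti-miR-ctl and none was higher by edgeR's quasi-likelihood test at an adjusted p under 0.05. The background was broad, since 28.1% of the 15496 genes tested were called, 16% of all genes tested as lower and 12.1% as higher. The 3 cytosolic RNA sensors fell by the largest factors, Dhx58 5.25-fold, Ddx58 4.67-fold and Ifih1 4.16-fold, followed by Tlr7 3.35-fold, Tlr9 2.40-fold, Tlr2 2.30-fold and Myd88 1.31-fold. Tlr3, Tlr4 and Zbp1 were not called. The median log2 fold change of the 10 genes was -1.23, and that of all genes tested was 0.00. The libraries of the groups did not overlap for any of the 10 genes, which held for 67.8% of all genes, so a lack of overlap says little about them. In bulk RNA, fewer cells of a type and less RNA per cell cannot be told apart. No untransfected cells were measured, so a fall with anti-miR-145 cannot be told apart from a rise with anti-miR-ctl. Here and below, a gene said to fall in OPCs was lower with anti-miR-145 than with anti-miR-ctl.

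**Figure D1:**
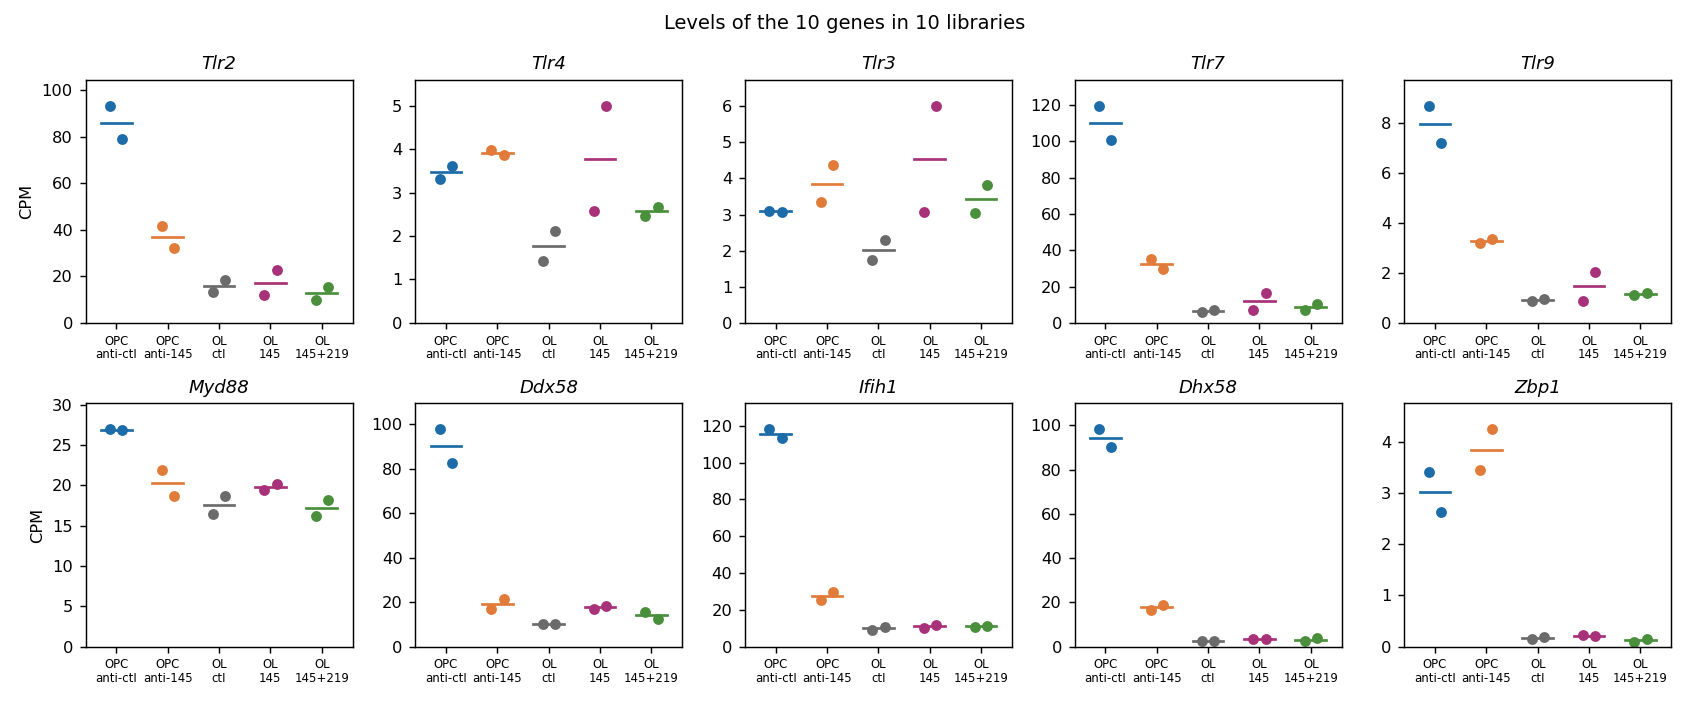
Levels of the 10 genes in CPM (TMM, linear axes from 0, a scale of its own for each gene), with a point for each of the 2 libraries of a group and a bar at their mean. Dhx58, Ddx58, Ifih1, Tlr7, Tlr9 and Tlr2 stand highest in OPC anti-miR-ctl, whereas Zbp1 lies between 2.63 and 4.25 CPM in the OPC libraries and at 0.231 CPM or less in every OL library.

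At the cell surface, Tlr2, the receptor of bacterial lipoproteins, stood at 93.2 and 78.8 CPM in the anti-miR-ctl libraries and at 41.8 and 32.3 CPM in the anti-miR-145 libraries. Both inhibitor libraries lay well below both controls, and the log2 fold change was -1.20 ± 0.147 (SE, adjusted p = 0.00130). A change as low or lower was held by 7.18% of all genes tested. Tlr4, the lipopolysaccharide receptor, was read at 3.32 and 3.62 CPM in controls and at 3.97 and 3.86 CPM with anti-miR-145. It did not pass the test, with a log2 fold change of 0.19 (95% interval -0.21 to 0.59, adjusted p = 0.434). The difference between these receptors was not tested.

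Among the endosomal receptors, Tlr7, which binds single-stranded RNA, was at 119.5 and 100.5 CPM in the anti-miR-ctl libraries and at 35.4 and 29.5 CPM in the anti-miR-145 libraries. Control libraries were higher throughout, and the log2 fold change of -1.74 ± 0.13 (SE) passed the test at an adjusted p of 0.000166. Tlr9, the CpG DNA receptor, was at 8.70 and 7.21 CPM in controls and at 3.202 and 3.360 CPM with anti-miR-145. The groups stood apart, with a log2 fold change of -1.26 ± 0.155 (SE, adjusted p = 0.00132). Tlr3, which binds double-stranded RNA, was at 3.11 and 3.07 CPM in controls and at 3.35 and 4.36 CPM with anti-miR-145. Its log2 fold change of 0.33 (95% interval -0.12 to 0.79) was not called, at an adjusted p of 0.234.

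Myd88, the adaptor shared by Tlr2, Tlr4, Tlr7 and Tlr9, was read at 26.95 and 26.83 CPM in the anti-miR-ctl libraries and at 21.95 and 18.66 CPM in the anti-miR-145 libraries. It fell by 0.39 ± 0.113 (SE) on the log2 scale, just past the threshold at an adjusted p of 0.0422. That call was lost with all 5 groups in a single fit (adjusted p = 0.0751) and without anti-miR-ctl replicate 1 (0.150) or replicate 2 (0.145). The other 6 calls held under every alternative tried.

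The cytosolic RNA sensors had the steepest changes of the 10 genes. Ddx58, which encodes RIG-I, stood at 97.6 and 82.7 CPM in the anti-miR-ctl libraries and at 16.7 and 21.5 CPM in the anti-miR-145 libraries. Its log2 fold change was -2.22 ± 0.137 (SE, adjusted p = 9.37e-05). Ifih1, which encodes MDA5, stood at 118.1 and 113.5 CPM in controls and at 25.4 and 29.7 CPM with anti-miR-145. It fell by 2.06 ± 0.0979 (SE) on the log2 scale (adjusted p = 4.96e-05), and a change as low or lower was held by 2.47% of all genes. Dhx58, which encodes the regulator LGP2, stood at 98.1 and 90.2 CPM in controls and at 16.7 and 18.8 CPM with anti-miR-145. With a log2 fold change of -2.39 ± 0.0963 (SE, adjusted p = 3.11e-05), its p ranked 24 among the 15496 genes tested.

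Zbp1, the sensor of left-handed nucleic acids, was not among the called genes. It was read at 3.42 and 2.63 CPM in the anti-miR-ctl libraries and at 3.45 and 4.25 CPM in the anti-miR-145 libraries. The anti-miR-145 libraries were the higher by a small margin, and the log2 fold change of 0.36 (95% interval -0.12 to 0.84) was not called at an adjusted p of 0.230.

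**Figure D2:**
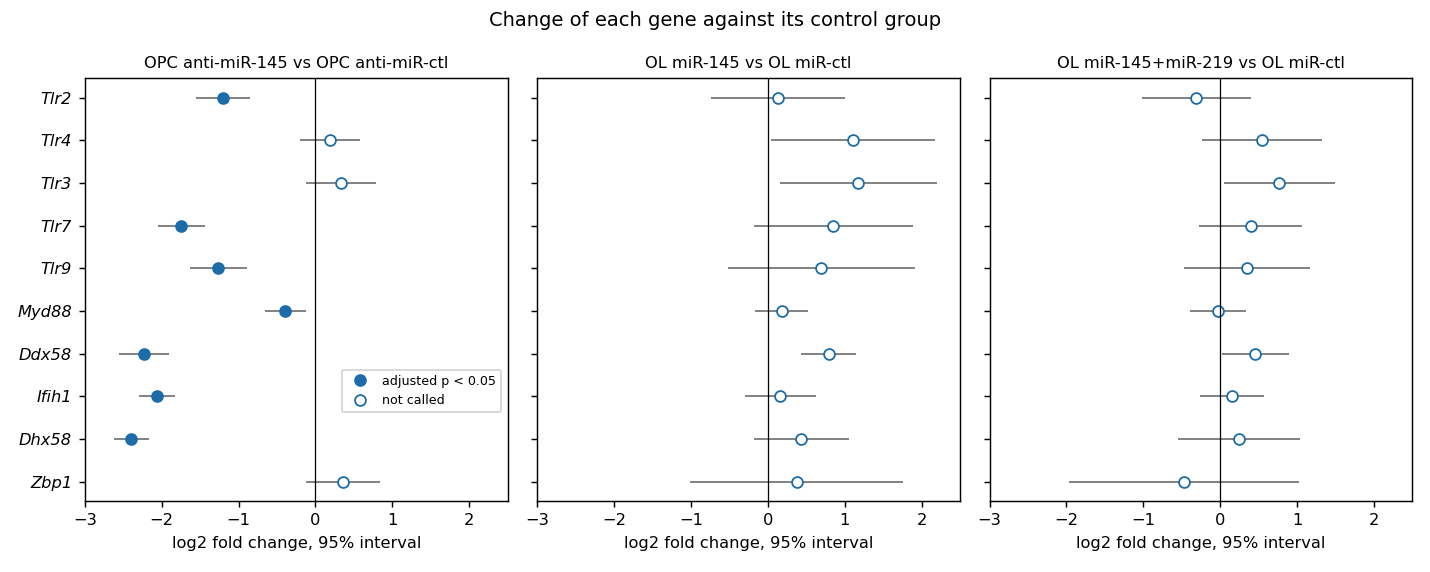
Log2 fold change of each gene with its 95% interval in 3 comparisons, filled where the edgeR adjusted p is under 0.05. In OPCs 7 genes lie left of 0 with filled points, while no point is filled in either OL comparison.

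Microglia markers moved with this comparison in both directions. Their sum was 1433 and 1317 CPM in the anti-miR-ctl libraries and 1508 and 1186 CPM in the anti-miR-145 libraries, so the groups overlapped. Of the 15 markers, 8 were called higher, 5 lower and 2 were not called. Among those lower were Itgam (log2 fold change -1.58), Ptprc (-1.52) and Aif1 (-1.40), and among those higher were Cx3cr1 (1.83), Trem2 (1.67) and C1qb (1.34). Per 1000 CPM of summed microglia markers, Tlr7 was at 83.4 and 76.3 in controls and at 23.5 and 24.9 with anti-miR-145. Tlr2 stood at 65.0 and 59.8 against 27.7 and 27.2, and Dhx58 at 68.5 and 68.5 against 11.1 and 15.8. On that scale the groups stood apart for all 3, but how many of all genes did so was not counted, and in CPM 67.8% did. The summed markers moved in both directions, so their sum is not a fixed measure of microglia. Endothelial markers summed to 11.5 and 10.7 CPM in controls and to 1.52 and 1.56 CPM with anti-miR-145, nearly all of the difference being Flt1. Astrocyte markers summed to 443 and 413 CPM in controls and to 218 and 273 CPM with anti-miR-145, with Slc1a3 (-1.06) and Slc1a2 (-1.22) called lower and Gfap (2.53) called higher. Whether a change in the microglia, endothelial cells or astrocytes of the cultures plays a part in the 7 calls was not tested.

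**Figure D3:**
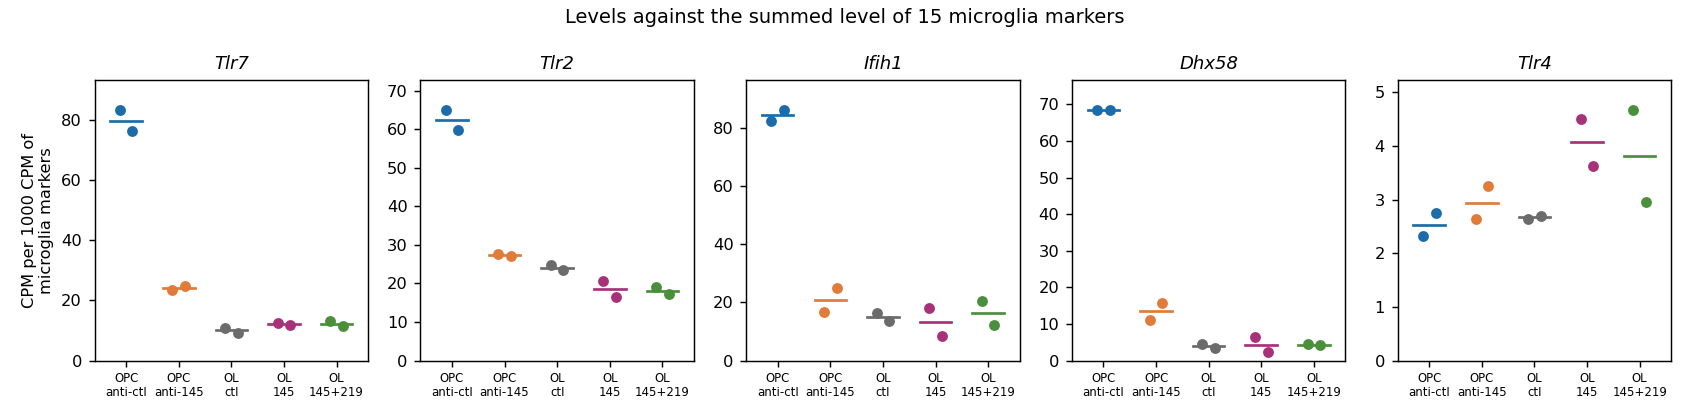
Level of 5 genes per 1000 CPM of the summed 15 microglia markers, with a point for each library, a bar at the mean and axes from 0. Tlr7, Tlr2, Ifih1 and Dhx58 stay highest in OPC anti-miR-ctl on this scale, and Tlr4 does not.

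The lists of other genes in these pathways were read in the same fit, by counts and medians. Their counts stand beside 16% of all genes tested called lower and 12.1% called higher. Of 8 other Toll-like receptors listed, 3 were in the table and all 3 were called, Tlr6 (a partner of Tlr2, log2 fold change -1.88) and Tlr8 (-0.82) lower and Tlr5, the flagellin receptor, higher (2.17). Of the 10 co-receptors and trafficking factors, 6 were tested and 4 fell, namely Cd180 (-1.99), its partner Ly86 (-1.03), the lipopolysaccharide co-receptor Cd14 (-0.88) and Unc93b1 (-0.71), which carries the endosomal receptors from the endoplasmic reticulum. The other 2, the chaperones Cnpy3 and Hsp90b1, were not called. Among 18 adaptor and kinase entries, 5 fell and 2 rose, against those 16% and 12.1% of all genes, with a median of -0.09. The highest log2 fold change of these entries was 0.38. The largest falls there were Irak3 (-2.44), an inhibitory kinase of this pathway, and Ripk3 (-2.03), the kinase through which Zbp1 starts necroptosis, whose substrate Mlkl fell too (-0.93), as did Ticam2 (-1.23), an adaptor of Tlr4.

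Downstream of the cytosolic sensors, 5 of 12 tested genes of RIG-I and cGAS signalling were lower and 1 was higher. Their median was -0.40 and their highest log2 fold change 0.32, and of all genes tested 16% were called lower and 12.1% higher. Nlrc5 (-2.06), the DNA sensor Cgas (-1.69), Tank (-1.57) and Trim25 (-1.40), a ubiquitin ligase for RIG-I, had the smallest p-values among those lower. The shared adaptor Mavs had a log2 fold change of -0.00, the kinase Tbk1 -0.16 and Tmem173, which encodes STING, -0.10, none of them called. Of the other nucleic acid sensors and nucleases, 13 of 18 entries were lower and none was higher, with a median of -1.64. Those of smallest p were Oas1a (-3.20), Oasl (-3.59) and Oasl2 (-3.27), of the oligoadenylate synthetase family, and Ifit3 (-3.08), which belongs to a family of RNA-binding proteins induced by interferon. Oas genes are near copies of each other, so the split of reads among them is uncertain.

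Among 14 IRF, STAT and NF-kB factors, 9 were lower and 4 higher, against 16% and 12.1% of all genes, with a median of -0.67. The 4 that were higher reached a log2 fold change of up to 1.26. Irf7 was at 242 and 214 CPM in controls and at 54.1 and 40.8 CPM with anti-miR-145 (log2 fold change -2.25), and Irf9 (-1.44), Stat2 (-1.12) and Nfkb2 (-1.40) fell as well. Irf3, which is activated by phosphorylation, was at -0.03 and not called. Of 14 feedback inhibitors, 11 were lower and 1 higher, with a median of -0.57. Usp18 (-3.89) and Isg15 (-3.64) fell furthest, Tnfaip3, which restrains NF-kB, fell by 1.76 on the log2 scale, and Socs3 rose (1.33). Interferons and their receptors held the fewest calls of these lists. Of 14 listed, 7 were in the table, and only the receptor chain Ifngr2 was called (-0.39), with a list median of 0.04.

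**Figure D4:**
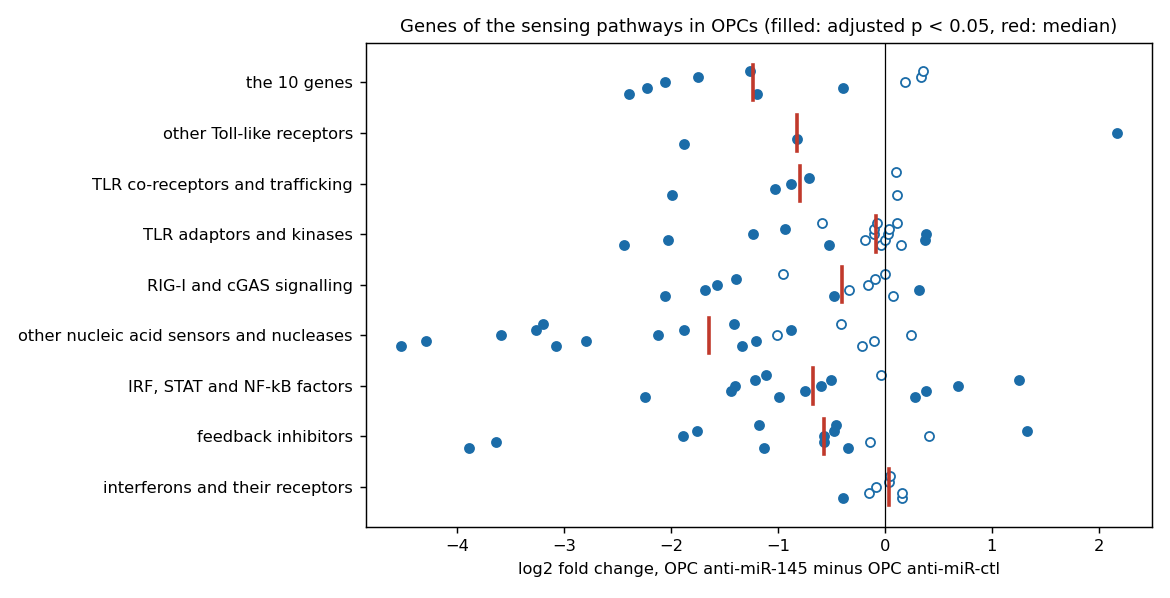
Log2 fold change in OPCs (anti-miR-145 minus anti-miR-ctl) of each gene of the 10 and of 8 pathway lists, filled where the edgeR adjusted p is under 0.05, with a red bar at each list's median. The list of other nucleic acid sensors lies furthest left, with a median of -1.64, and interferons and their receptors lie about 0.

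In OLs, no gene was called between miR-145 and miR-ctl by edgeR, none of the 10 and none (0%) of the 15461 tested. At an unadjusted p under 0.05, 2067 genes (13.4%) and 3 of the 10 passed, and DESeq2 called 649 genes (4.2%), of which Ddx58 was the single member of the 10. All 10 genes had a log2 fold change above 0, as did 48.4% of all genes tested, with a median of 0.57 against -0.01 for all genes. The libraries stood apart and higher with miR-145 for 6 of the 10 (Ddx58, Dhx58, Tlr3, Tlr4, Myd88 and Zbp1), against 22.9% of all genes.

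Ddx58 was at 10.2 and 10.3 CPM with miR-ctl and at 17.0 and 18.2 CPM with miR-145. These replicates lay close together in both groups, and the log2 fold change was 0.79 ± 0.143 (SE), with an unadjusted p of 0.00206, an edgeR adjusted p of 0.164 and a DESeq2 adjusted p of 0.00496. Dhx58 and Ifih1, the other RIG-I-like receptors, had smaller changes and were not called. Dhx58 was at 2.46 and 2.70 CPM in controls and at 3.61 and 3.36 CPM with miR-145 (log2 fold change 0.44, 95% interval -0.18 to 1.05). Ifih1 was at 8.90 and 10.8 CPM in controls and at 10.4 and 11.6 CPM with miR-145 (0.16, interval -0.30 to 0.63), and its libraries overlapped.

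The Toll-like receptors were spread widely between the miR-145 replicates. Tlr3 was at 1.73 and 2.30 CPM in controls and at 3.06 and 6.01 CPM with miR-145, with a log2 fold change of 1.18 ± 0.406 (SE, unadjusted p = 0.0305, adjusted p = 0.324). Tlr4 was at 1.43 and 2.12 CPM in controls and at 2.57 and 5.00 CPM with miR-145, with a log2 fold change of 1.10 ± 0.425 (SE, unadjusted p = 0.0448, adjusted p = 0.361). For both, replicate 2 of miR-145 was near double replicate 1, and neither gene passed this test. Tlr7 was at 5.90 and 7.31 CPM in controls and at 7.18 and 16.5 CPM with miR-145 (0.85, adjusted p = 0.435), with overlap. Tlr2 was at 13.4 and 18.5 CPM in controls and at 11.8 and 22.8 CPM with miR-145, both lower and higher than the controls (0.13, 95% interval -0.75 to 1.00). Tlr9 was at 0.880 and 0.952 CPM in controls and at 0.894 and 2.05 CPM with miR-145 (0.69, interval -0.52 to 1.91). Without replicate 2 of miR-145 the log2 fold change of Tlr7 was 0.12, that of Tlr2 -0.43 and that of Tlr9 -0.03, and without replicate 1 of miR-ctl that of Tlr2 was -0.08, so the directions of Tlr2 and Tlr9 rested on single libraries.

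Myd88 and Zbp1 were not called either. Myd88 was at 16.5 and 18.7 CPM in controls and at 19.4 and 20.2 CPM with miR-145 (log2 fold change 0.18, 95% interval -0.17 to 0.53). Zbp1 was near the limit of detection, at 0.151 and 0.184 CPM in controls and at 0.231 and 0.202 CPM with miR-145, with an interval from -1.01 to 1.76 that leaves its direction unknown.

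Markers of other cells also differed between these libraries. The summed microglia markers reached 542 and 786 CPM with miR-ctl and 569 and 1379 CPM with miR-145, highest in the replicate in which Tlr2, Tlr3, Tlr4, Tlr7 and Tlr9 were highest. All 15 microglia markers had a log2 fold change above 0, with a median of 0.73, none called by edgeR and 1 (Cx3cr1) called by DESeq2. Per 1000 CPM of these markers, Tlr7 was at 12.61 and 11.96 with miR-145 and at 10.9 and 9.30 in controls, Tlr3 at 5.37 and 4.36 against 3.201 and 2.929, and Tlr2 at 20.7 and 16.5 against 24.7 and 23.5. The replicates of miR-145 thus lay closer together per marker than in CPM for these 3 genes. The same held for Tlr4 (4.51 and 3.63 with miR-145) and Tlr9 (1.57 and 1.48). Ddx58, on the other hand, was at 29.9 and 13.2 against 18.7 and 13.1, and its replicates lay further apart per marker. So did those of Ifih1 (18.2 and 8.43 with miR-145), Dhx58 (6.33 and 2.44), Myd88 (34.1 and 14.7) and Zbp1 (0.405 and 0.147). Astrocyte markers summed to 12018 and 8250 CPM with miR-145 and to 4982 to 5820 CPM in controls. All 6 had a log2 fold change above 0 (median 0.88), and 5 had an unadjusted p under 0.05, against 13.4% of all genes. None of them was called by edgeR and 4 were called by DESeq2, against 4.2% of all genes. Of the miR-145 libraries, the astrocyte sum was the higher in replicate 1, where the Toll-like receptors were the lower. Fibroblast or mural markers summed to 7.50 and 24.3 CPM with miR-145 and to 3.64 and 3.59 CPM in controls, and the 3 that were tested all had a log2 fold change above 0 (median 2.57) and an unadjusted p under 0.05, with none called by edgeR and 1 (Pdgfrb) by DESeq2. The part of these cells in the differences was not tested.

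With miR-145 and miR-219 together, none of the 10 genes and none (0%) of the 15436 tested was called against miR-ctl, while 956 genes (6.19%) and 2 of the 10 had an unadjusted p under 0.05 and DESeq2 called 106 genes (0.687%) and none of the 10. The control libraries are those used for miR-145 alone, so both sets of values share them. Tlr3 was at 3.04 and 3.82 CPM (log2 fold change 0.77 ± 0.281 SE, unadjusted p = 0.0409, adjusted p = 0.801). Ddx58 was at 15.7 and 12.3 CPM (0.46 ± 0.169 SE, unadjusted p = 0.0429, adjusted p = 0.801). Both lay above both controls. Of the other 8, the log2 fold change was 0.54 for Tlr4 (2.47 and 2.67 CPM), 0.40 for Tlr7 (6.94 and 10.4 CPM), 0.34 for Tlr9 (1.11 and 1.21 CPM), 0.24 for Dhx58 (2.37 and 3.73 CPM) and 0.16 for Ifih1 (10.84 and 11.03 CPM). It was -0.03 for Myd88 (16.2 and 18.2 CPM), -0.31 for Tlr2 (10.0 and 15.5 CPM) and -0.47 for Zbp1 (0.0988 and 0.140 CPM). The 95% intervals of these 8 all span 0. Of them, Tlr4, Tlr9 and Ifih1 also lay above both controls and Zbp1 lay below both. The share of all genes that stood apart is not given for this comparison, so a lack of overlap says little here. Summed microglia markers were at 528 and 903 CPM in these libraries.

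Adding the miR-219 mimic to miR-145 was compared directly with miR-145 alone. None of the 10 genes and none (0%) of the 15501 tested was called, with 228 genes (1.47%) but none of the 10 at an unadjusted p under 0.05 and 9 genes (0.0581%) called by DESeq2. All 10 genes had a log2 fold change below 0, from -0.85 for Zbp1 to -0.02 for Ifih1, as against 49.3% of all genes above 0, with a median of -0.39 against -0.00 for all genes. All 15 microglia markers were also below 0 in this comparison, with a median of -0.48. The libraries stood apart for 3 of the 10, Ddx58 (-0.34), Myd88 (-0.21) and Zbp1, all lower, against 11.2% of all genes. Without replicate 2 of miR-145, Tlr2, Tlr3, Tlr4, Tlr7, Tlr9 and Ifih1 were above 0 instead, and without replicate 1 of both mimics Ifih1 and Dhx58 were.

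The pathway lists held no edgeR call in OLs. The gene of smallest p between miR-145 and miR-ctl was Irf7 among the factors, at 1.15 and 1.41 CPM against 0.427 and 0.614 CPM (log2 fold change 1.31, adjusted p = 0.271). It was Cd180 among the co-receptors (1.44, adjusted p = 0.293), Tlr6 among the other Toll-like receptors (0.77, 0.307), Nlrx1 in RIG-I and cGAS signalling (0.49, 0.254), Irak1 among the adaptors and kinases (0.36, 0.271), Jak1 with the interferon receptors (0.33, 0.299) and Peli1 among the feedback inhibitors (-0.53, 0.223). Among other sensors it was 1 of 2 entries of Oas1i, at 0.810 ± 0.038 CPM (SD, 2 libraries) with miR-145 and at 0 counts in both controls. The other entry of Oas1i stood at 0 counts with miR-145 and at 0.734 ± 0.221 CPM in controls, and reads of near copies cannot be assigned with certainty. With both mimics, the genes of smallest p were Nfkbiz (log2 fold change -1.10), Cd180 (1.07), Ripk3 (0.86), Relb (-0.38), Tlr6 (0.38), Jak1 (0.25), Eif2ak2 (0.25) and Traf2 (-0.23), with adjusted p-values from 0.800 to 0.826. DESeq2 placed Cd180 (adjusted p = 0.0479) and both entries of Oas1i, 1 higher (0.00201) and 1 lower (0.00376), past the threshold with miR-145, and Nfkbiz (0.0438) with both mimics. Usp18, which fell furthest of the feedback inhibitors in OPCs with anti-miR-145, was near 0 in OLs, at 0.377 and 0.123 CPM with miR-ctl and at 0.202 and 0.328 CPM with miR-145.

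The control groups of both stages were compared to place the levels. They differ in stage, medium, time after transfection and type of oligonucleotide, which cannot be told apart. Between OL miR-ctl and OPC anti-miR-ctl, 57.5% of 15721 genes were called, 28.7% lower in OLs, and 9 of the 10 genes were lower. The log2 fold change was -5.19 for Dhx58, -4.16 for Zbp1, -4.06 for Tlr7, -3.56 for Ifih1, -3.14 for Ddx58, -3.12 for Tlr9, -2.44 for Tlr2, -0.98 for Tlr4 and -0.62 for Myd88. Tlr3, at -0.62 with an adjusted p of 0.0716, was not called. The libraries stood apart for all 10 genes, as for 81.7% of all genes. Dhx58 was thus 36.6-fold and Tlr7 16.7-fold lower in OLs, whereas Myd88 was 1.53-fold lower. Without anti-miR-ctl replicate 1 or replicate 2, 7 of the 10 were called. Summed microglia markers were also lower in the OL miR-ctl libraries, at 542 and 786 CPM against 1433 and 1317 CPM, with 8 of the 15 called lower and 1 higher, and their part was not tested.

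The order of the group means differed between the genes. For Tlr2, Tlr7, Tlr9, Ddx58, Ifih1, Dhx58 and Myd88 it ran from OPC anti-miR-ctl through OPC anti-miR-145 to the OL groups. The anti-miR-145 libraries lay between the control OPCs and all OL libraries for Tlr2, Tlr7, Tlr9, Ifih1 and Dhx58, but overlapped those of OL miR-145 for Ddx58 and Myd88. Zbp1 had both OPC groups at the top, at a mean of 3.85 ± 0.562 CPM with anti-miR-145 and 3.02 ± 0.555 CPM with anti-miR-ctl (SD, 2 libraries), and 0.216 CPM or less in the OL groups. Tlr4 and Tlr3 had no order by stage. For Tlr4 the libraries of OL miR-145 overlapped those of OPC anti-miR-145 above and OPC anti-miR-ctl below, and for Tlr3 each of the 4 highest groups overlapped the next of them. For both, OL miR-ctl was lowest, at 1.78 ± 0.485 CPM for Tlr4 and 2.02 ± 0.403 CPM for Tlr3, and stood apart from the group above it. The order was the same for 10 of 10 genes with DESeq2's size factors.

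For each gene, the other gene with the most similar profile was found by Pearson's r of log2(CPM + 1) over the 10 libraries, among 16329 genes. The libraries fall into 5 groups and the spread between OPCs and OLs sets much of each value, so r is a description and carries no p. Tlr7 and Tlr9 had the same nearest gene, Pik3cg, a lipid kinase subunit of leukocytes (r = 0.999 and 0.996). Tlr2 was nearest to Selplg, the leukocyte ligand of P-selectin (0.996). Ifih1 was nearest to Gbp4, an interferon-induced GTPase (0.999), Ddx58 to Herc6, a ubiquitin ligase induced by interferon (0.998), and Dhx58 to Lgals9, which encodes galectin-9 (0.998). Zbp1 was nearest to Ly49si1, of the Ly49 receptor family of natural killer cells and subject to near copies (0.998). Values were lower for Myd88 with Dok1 (0.977), Tlr4 with Anxa3 (0.968) and Tlr3 with Cd84 (0.913), the genes whose levels varied least between the groups.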

How the data were processed

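Poly(A) RNA of 10 libraries was prepared with a stranded mRNA kit and sequenced on a NextSeq instrument. Per the study's methods and the labels, the authors assigned reads to GENCODE Rnor6.0 transcripts with Salmon 0.12.0, imported the transcript values with tximport and deposited them as estimated counts of each gene without normalization. Of each library's values, 16.0% to 17.5% were not whole, and all were rounded. The deposited counts held 23487 genes, 4030 of them at 0 throughout. The authors' DESeq2 table (base means, log2 fold changes, p-values) served only for symbols, with 230 added from RefSeq by gene ID, and 276 symbols have more than 1 ID. The methods name lentivirus for RNAseq, whereas results and labels name mimics.

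Each comparison used the 4 libraries it is about, in edgeR 4.0.16 and R 4.3.3 (TMM, estimateDisp, glmQLFit, glmQLFTest), with Benjamini-Hochberg adjustment over all genes tested. SE is the log2 fold change divided by the square root of F. Figures were drawn with Python 3.11.15 and matplotlib 3.10.9. The code was tested on simulated counts. Replicates differed beyond counting noise in every group, and none was counted as a repeat of another.

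Alternatives were DESeq2 1.42.0, DESeq2's size factors, 2 other filters, all 5 groups in a single fit, a replicate term and leaving out each library. Members and lists were chosen with earlier results of these data known. Named genes are the 10, up to 4 called genes of smallest p per list in OPCs, 1 of smallest p per list in each OL mimic comparison, and the nearest profile of each of the 10. Mavs, Tbk1, Tmem173, Irf3, Cnpy3, Hsp90b1 and the OL values of Usp18 fall outside that rule and were named after their values were seen, as were the markers. Ly96, Ticam1 and other listed genes that the symbols did not match were not analysed here.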

Additional observations from a re-analysis of the deposited data

How the results depend on the processing

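With 2 libraries per group, the OL comparisons depend on the estimate of the spread. Between OL miR-145 and miR-ctl, where edgeR called 0 genes, DESeq2 called 649 genes and 1 of the 10, and all 5 groups in a single fit called 32. Between both mimics and miR-ctl, 106 were called by DESeq2 and 1 without a filter. Between both mimics and miR-145 alone, DESeq2 called 9. In OPCs the single fit called 2553 genes in place of 4348. The cause of these shifts was not tested.

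The labels number replicates in each group but give no sign that equal numbers mean a common culture, so the samples share only a number. Deviations of samples with the same number correlated at -0.15 in OPCs, 0.40 and 0.47 for miR-145 and both mimics against miR-ctl, 0.63 between the mimic groups and 0.07 between the stages. With a replicate block, 2272 genes and 4 of the 10 (Ddx58, Tlr3, Tlr7 and Tlr4, with edgeR adjusted p-values of 0.000182, 0.00199, 0.00504 and 0.00633) were called between miR-145 and miR-ctl, 132 genes between both mimics and miR-ctl and 184 between the mimic groups, with none of the 10 in these last comparisons. In OPCs the block called 3963 genes and left 7 of the 10 called. Between the stages, where 9042 genes were called without it, the block left 9 of the 10 called.

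Leaving out each library in turn, with a lone sample assumed to vary like the others, gave 2348 to 7133 called genes in OPCs (6 to 7 of the 10) and 4780 to 10306 between the stages (7 to 10 of the 10), and none in the OL comparisons. The highest count in OPCs was without anti-miR-145 replicate 2 and the lowest without anti-miR-ctl replicate 1 (2348) or replicate 2 (2407). Directions turned only when a library was left out. Between miR-145 and miR-ctl, log2 fold changes ran from -0.435 to 0.531 for Tlr2 and from -0.0326 to 1.17 for Tlr9. Between both mimics and miR-ctl they ran from -0.128 to 0.0633 for Myd88 and from -0.13 to 0.54 for Dhx58. Between the mimic groups they ran from -0.107 to 0.0809 for Ifih1, -0.57 to 0.10 for Dhx58, -0.95 to 0.27 for Tlr7, -0.86 to 0.12 for Tlr2, -0.981 to 0.00237 for Tlr4, -0.83 to 0.17 for Tlr3 and -0.838 to 0.375 for Tlr9. None of these 11 changes was called. The other filters and DESeq2's size factors changed no call of the 10 genes. Depth limits Zbp1 in OLs, where it held 4 to 8 counts in a library and was untested with at least 10 counts in 2 libraries.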
